A study of Mus musculus with 6 samples.

Results

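Serglycin, lysozyme, cathepsins and the membrane proteins of lysosomes are described here through 10 genes, Srgn, Lyz2, Cd63, Ctsb, Ctsc, Ctsd, Ctsh, Ctsz, Lamp1 and Lamp2, taken by symbol from the 47561 genes and transcripts listed for each library. All 10 were found and all 10 passed the filter on low values, 1 FPKM in at least 3 libraries, that 8523 genes passed. Blood neutrophils sorted by flow cytometry were profiled by RNA sequencing in 3 samples from mice after 30 days of AVP (an abbreviation that the labels leave unexpanded) and in 3 samples from mice labelled as negative controls, each library named here by its group and replicate number. The 30 days are listed for the samples of both groups. The labels' genotype field carries only the words AVP and control, and the sources used here do not give strain, sex, age, dose or route. Whether each sample came from a different animal is not stated, so every p-value below reflects sample-to-sample spread that may be technical.

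A neutrophil packs proteases and antimicrobial proteins into granules made in the bone marrow, and keeps lysosomes that digest what it has engulfed. Serglycin is the proteoglycan whose negatively charged sugar chains hold basic granule proteins, lysozyme cuts bacterial cell walls, and cathepsins are proteases that work in the acid interior of lysosomes and granules. LAMP1 and LAMP2 are heavily glycosylated proteins that line the lysosome membrane, and CD63 is a tetraspanin of lysosome and azurophil granule membranes. Much of the granule cargo is transcribed before a neutrophil leaves the marrow, so blood cells can hold a protein whose transcript is no longer made.

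Across the libraries, 10628 to 12195 features lay above 0 and totals were 755140 to 829725 FPKM, a unit that divides a gene's fragments by its transcript length and the library's size. Each library held roughly 14199000 to 16845000 fragments, estimated from the value that 1 fragment adds to a short pseudogene. The neutrophil genes S100a8 and S100a9 made up 18.4% to 22.9% of the total FPKM in AVP libraries and 20.5% to 23.9% in control libraries. Of 11 neutrophil markers, 11 were above 0 in at least 1 library and 10 passed the filter. Ltf was above 0 only in control 1 (0.111 FPKM), and Camp was listed at 0 in AVP 1, AVP 3 and control 2. RNA of other blood cells was present as well. Red cell markers (8 genes) summed to 119331 to 242575 FPKM in AVP libraries and 102675 to 154851 FPKM in control libraries, and B cell markers (9 genes) to 1353 to 5073 FPKM in AVP libraries and 5033 to 7934 FPKM in control libraries. The AVP 3 library stood apart in its monocyte markers, whose sum was 263 FPKM there, against 974 and 1191 FPKM in AVP 1 and AVP 2 and 523, 827 and 1173 FPKM in controls 1 to 3. It was the lowest library for 6 of the 12 monocyte markers, 2 of them were listed at 0 there, and none of the 12 was at 0 in every library. T cell markers (8 genes) summed to 115 FPKM in AVP 3 and to at most 13.7 FPKM elsewhere, and basophil markers (8 genes) to 338 FPKM in AVP 1, to 31.1 FPKM in control 2 and to under 0.1 FPKM elsewhere. In such bulk samples, fewer cells of a type and less RNA per cell cannot be told apart.

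Srgn and Lyz2 dominated the group, and the other 8 genes were far lower. The members together took 0.805%, 1.11% and 0.522% of the total FPKM in AVP libraries and 0.597%, 0.659% and 0.834% in control libraries, of which Srgn and Lyz2 supplied 88.5% to 92.4% in AVP libraries and 87.6% to 92.1% in control libraries. By mean FPKM over the 6 libraries the order was Lyz2 (3094), Srgn (2371), Ctsd (176), Cd63 (91.5), Lamp2 (88.9), Ctsh (59.4), Ctsz (54.3), Lamp1 (36.6), Ctsb (31.6) and Ctsc (11.8). Among the 8523 genes tested, Lyz2 ranked 22, Srgn ranked 31 and Ctsd ranked 404, while Ctsc, the lowest, ranked 3235. The step between Srgn and Ctsd was the only place in the order where no library of the higher gene reached down to a library of the lower. Lyz2 was above Srgn in 5 of 6 libraries, the exception being AVP 3. Ctsd was above Cd63 in all 6 libraries and Lamp2 above Ctsh in all 6, although their ranges overlapped, and Cd63 and Lamp2, or Ctsz and Lamp1, each led in 3 of 6. Ctsc, with about 153 to 898 fragments per library, was the least precisely measured of the 10, while Srgn rested on about 22392 to 46021 fragments.

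**Figure D1:**
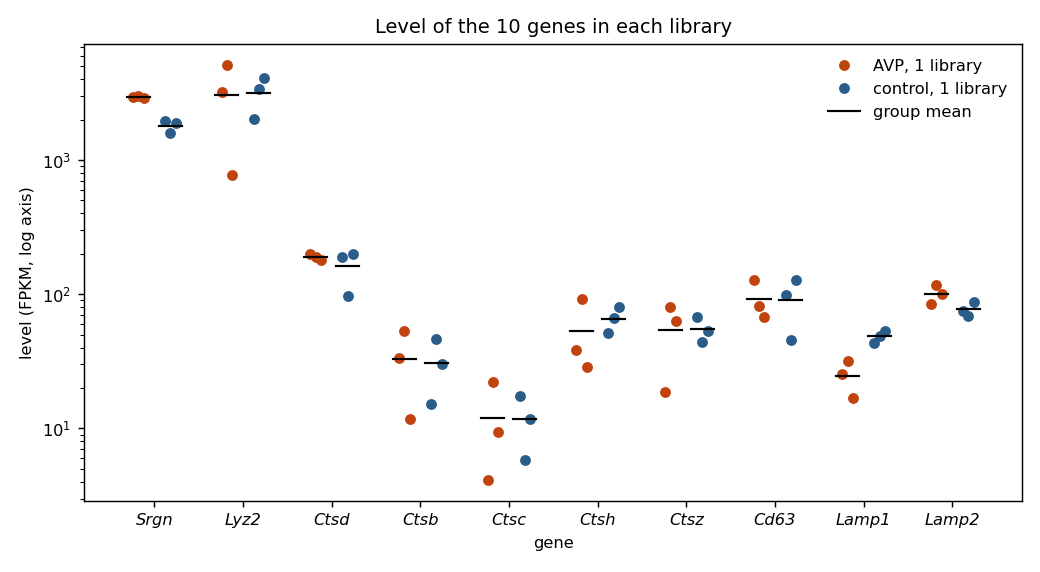
Level of each of the 10 genes in FPKM on a log axis, 3 AVP libraries in orange to the left of 3 control libraries in blue, with the group mean as a black bar. Srgn lies at 2913 to 2976 FPKM in AVP libraries, above all controls, Lamp1 lies below all controls, and Lyz2 has its lowest point, 771 FPKM, in an AVP library.

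None of the 10 genes passed the test across all genes. With limma on log2(FPKM + 1) and Benjamini-Hochberg adjustment over 8523 genes, 0 members and 0 genes (0%) had an adjusted p under 0.05. At an unadjusted p under 0.05, 2 of the 10 members were called, Srgn above and Lamp1 below, beside 722 genes (8.47%) in all, of which 400 (4.69%) were higher and 322 (3.78%) lower. The deposited values did not overlap between groups for the same 2 members, against 14% of all genes tested. For Srgn, with AVP above, that background was 6.39%, and for Lamp1, with AVP below, 7.63%. Among 10 genes a single call in each direction is not read as a result about the group. Of the 10 fitted fold changes 5 were above 0 and 5 below, with a median of 0.01 on the log2 scale, against -0.04 over all genes tested. High deposited values fell together in a single library: 7 of the 10 genes had their highest value in AVP 2, where 16.7% of all genes tested peaked. Srgn is among the 7 only without scaling, since after scaling it was highest in AVP 1 (3281, against 2865 in AVP 2). Lyz2, Ctsb, Ctsh and Lamp1 were lowest in AVP 3, and Srgn, Cd63, Ctsd and Lamp2 were lowest in control 2. Ctsc and Ctsz were lowest in AVP 1, where 28.9% of all genes tested were lowest.

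**Figure D2:**
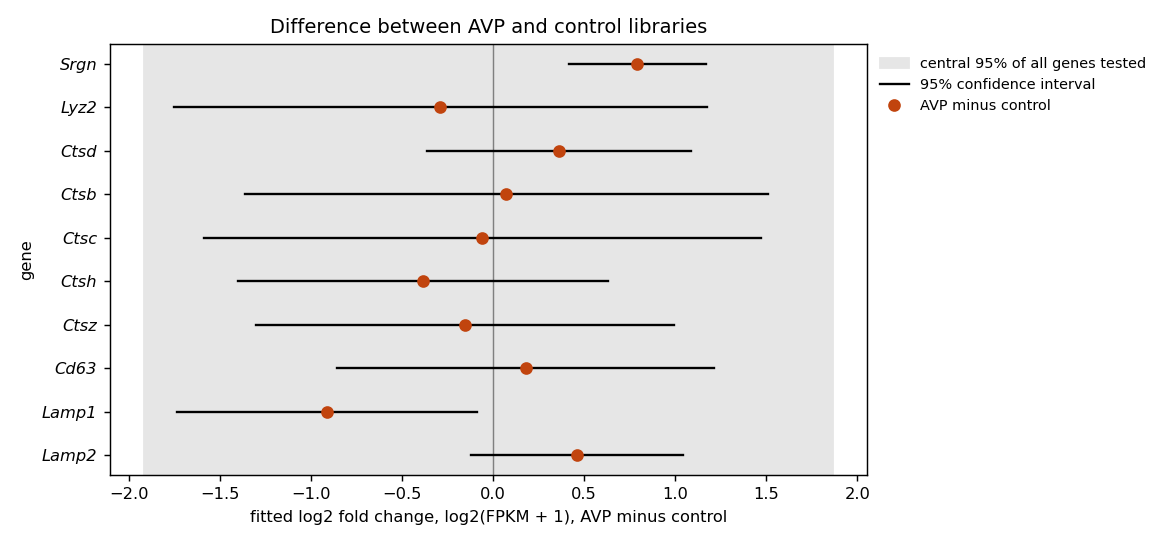
Fitted log2 fold change (AVP minus control) of each gene with its 95% confidence interval, over a grey band that holds the central 95% of all genes tested (-1.92 to 1.86). The intervals of Srgn and Lamp1 leave out 0, those of the other 8 genes hold it, and all 10 estimates lie inside the band.

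Serglycin was the most sharply separated of the 10 genes. Srgn (gene identifier 19073, protein-coding, chromosome 10 from 62493833 to 62527445 in GRCm38) had 2927, 2976 and 2913 FPKM in AVP libraries, against 1939, 1577 and 1897 FPKM in control libraries. Every AVP library was above every control, and the coefficient of variation was 1.14% among AVP libraries and 11.0% among controls. After scaling it was 7.33% among AVP libraries and 9.78% among controls. The means were 2938 ± 33.4 FPKM after AVP and 1804 ± 198 FPKM in controls (SD, n = 3 each), a ratio of 1.63. The fitted log2 fold change was 0.79 (SE 0.16, 95% interval 0.41 to 1.17), with an unadjusted p of 0.00125 and an adjusted p of 0.195 by limma. The exact two-sided permutation p was 0.1, which is as low as 3 against 3 can go. With variances not moderated along the level of expression, the unadjusted p was 0.0679 by limma. Srgn varied little within groups: its pooled SD after scaling was 0.13 on the log2 scale, smaller than in all but 4.88% of 41 genes within 2-fold of its mean level. Its level in AVP 3, where the monocyte marker sum was lowest, was close to that in the other AVP libraries. The 9 B cell markers, none of them at 0 in every library, summed to less in AVP 1 and AVP 3 than in any control. Igkc was the largest term of that sum, with 653, 3300 and 2710 FPKM in AVP libraries, against 4563, 6228 and 3355 FPKM in control libraries. Of the 9 markers, 8 had a fitted fold change below 0 and 1, Ighd, above. The part of B cell RNA in the Srgn difference was not tested.

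The genes whose profile over the 6 libraries was closest to that of Srgn, among 943 genes with a mean of at least 50 FPKM, predicted genes and pseudogenes left out, were Dusp1, Il1b and Adipor1. The measure was the root mean square difference between 2 genes' log2 values, each centred on its own mean, and it was 0.080 for Dusp1, 0.087 for Il1b and 0.10 for Adipor1, against a median of 0.55 over all 943. Dusp1, a phosphatase that switches off MAP kinases, had 1010, 950 and 898 FPKM in AVP libraries, against 594, 451 and 589 FPKM in control libraries. Il1b, the cytokine interleukin-1 beta, had 4102, 3555 and 3724 FPKM in AVP libraries, against 2294, 2129 and 2431 FPKM in control libraries. Adipor1, an adiponectin receptor, had 286, 282 and 307 FPKM in AVP libraries, against 228, 159 and 190 FPKM in control libraries. All 3 had their lowest value in control 2, as Srgn did, which is no separate support because they were picked for that likeness.

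The enzymes that attach and sulfate the chondroitin chains carried by serglycin showed no common direction. Of 16 such genes 11 were tested, 0 passed an adjusted p of 0.05, 5 had a fitted fold change above 0 and 6 below, and the median was -0.14. Chsy1, a synthase that extends the chain, had 20.3, 33.2 and 16.5 FPKM in AVP libraries, against 53.8, 27.4 and 42.7 FPKM in control libraries, with 1 AVP library inside the control range. Chst12, a sulfotransferase that acts on the chain, had 19.5, 17.0 and 17.4 FPKM in AVP libraries, against 3.93, 1.91 and 13.8 FPKM in control libraries. Its groups did not overlap, with a log2 fold change of 1.74 (SE 0.66, unadjusted p = 0.0303, adjusted p = 0.504 by limma).

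Lysozyme differed far more between libraries of a group than between the groups. Lyz2 (gene identifier 17105, chromosome 10 from 117277541 to 117282272 in GRCm38), which encodes the lysozyme of macrophages and neutrophils, had 3222, 5123 and 771 FPKM in AVP libraries, against 2010.0, 3364 and 4075 FPKM in control libraries. The AVP group held both the highest and the lowest library, 6.64-fold apart, and the controls were spread over 2.03-fold. The means were 3039 ± 2181 FPKM after AVP and 3149.7 ± 1049 FPKM in controls (SD, n = 3 each). The log2 fold change was -0.29 (SE 0.64, 95% interval -1.75 to 1.17, unadjusted p = 0.661, adjusted p = 0.928 by limma). Without AVP replicate 3 it was 0.52 (SE 0.32, unadjusted p = 0.151), so the direction rested on that library. The pooled SD within groups, 1.08 on the log2 scale, was larger than in all 24 genes within 2-fold of the mean level of Lyz2, whose median was 0.26.

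Lyz2 was lowest in AVP 3, the library with the lowest monocyte marker sum. By the measure used for Srgn, the profiles closest to Lyz2 among the same 943 genes were Ctss (0.19), Ms4a6c (0.22) and Bcap31 (0.30), against a median of 0.97. Ctss, a cathepsin of antigen-presenting cells and one of the 12 monocyte markers, had 278, 488 and 85.4 FPKM in AVP libraries, against 230 (control 1), 434 (control 2) and 461 FPKM (control 3). Ms4a6c, a membrane protein gene, had 82.6, 119 and 25.8 FPKM in AVP libraries, against 49.6, 86.5 and 85.6 FPKM in control libraries. Bcap31, which encodes an endoplasmic reticulum membrane protein, had 105, 123 and 23.0 FPKM in AVP libraries, against 47.1, 70.0 and 72.2 FPKM in control libraries. All 3 were lowest in AVP 3, as Lyz2 was, and highest in AVP 2, which is no separate support because they were picked for that likeness. Apart from Ctss, the 11 other monocyte markers summed to 696, 703 and 178 FPKM in AVP libraries, against 293, 394 and 713 FPKM in control libraries. Of these 11, 8 had their lowest AVP value in AVP 3, and 4 also had their highest AVP value in AVP 2. S100a8 and S100a9 together took 18.4%, 21.2% and 22.9% of the total FPKM in AVP libraries, against 23.9%, 22.5% and 20.5% in control libraries. The part of monocyte RNA in the Lyz2 values was not tested.

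**Figure D3:**
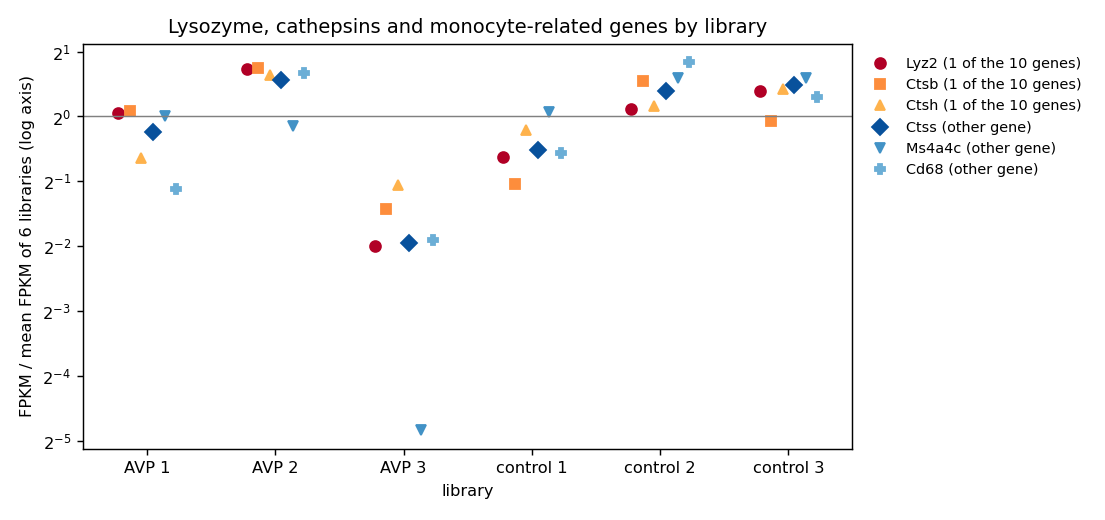
FPKM of Lyz2, Ctsb and Ctsh and of 3 other genes (Ctss, Ms4a4c and Cd68) in each library, divided by the gene's mean over the 6 libraries, on a log axis with a line at the mean. All 6 genes have their lowest value in AVP 3, and Ms4a4c, a monocyte marker named after its values were seen, drops furthest there, to 4.03 FPKM. Ctss and Ms4a4c are among 12 monocyte markers, of which 6 were lowest in AVP 3, and Cd68 is not on that list. Other markers went otherwise, such as Csf1r, lowest in AVP 1, and Cd14, lowest in control 1.

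Lyz2 has a near copy, and the start regions of the pair are shown because they show how alike the 2 genes are. The 100 bases before the start of Lyz2 (chr10:117282273-117282372, minus strand) and of Lyz1 (chr10:117292869-117292968, minus strand), from RefSeq on GRCm38.p6 and written 5′ to 3′, matched at 92 positions, and capitals mark the 8 that differ.
Lyz2: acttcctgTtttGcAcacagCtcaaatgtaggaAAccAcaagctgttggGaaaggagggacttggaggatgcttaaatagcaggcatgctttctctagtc
Lyz1: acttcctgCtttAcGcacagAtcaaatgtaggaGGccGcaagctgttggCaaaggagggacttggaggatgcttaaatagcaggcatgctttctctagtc
The transcripts of the pair, in GENCODE release M21, were 96% identical over 1262 aligned bases. The longest stretch without a difference was 118 bases, so 0 of 1166 possible reads of 151 bases from Lyz2 matched Lyz1 throughout, while shorter or mismatched alignments could still be assigned to either gene. Lyz1, the lysozyme known from Paneth cells of the gut, had 15.6, 35.2 and 2.66 FPKM in AVP libraries, against 7.09, 30.7 and 143 FPKM in control libraries. Its groups overlapped (log2 fold change -1.28, SE 1.14, unadjusted p = 0.294 by limma), and Lyz2 exceeded it 146-fold to 290-fold in AVP libraries and 28.5-fold to 284-fold in control libraries. The split of fragments between the 2 genes is uncertain.

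The aspartic protease cathepsin D was the most abundant cathepsin of the 10 genes, and it did not separate the groups. Ctsd (gene identifier 13033, chromosome 7 from 142375910 to 142387827 in GRCm38), which digests protein in lysosomes, had 198, 188 and 179 FPKM in AVP libraries, against 191, 97.0 and 200.5 FPKM in control libraries. The AVP values were tightly grouped and lay inside the control range, which was wide because of control 2. The means were 188 ± 9.90 FPKM after AVP and 163 ± 57.1 FPKM in controls (SD, n = 3 each), with a log2 fold change of 0.36 (SE 0.32, 95% interval -0.37 to 1.09, unadjusted p = 0.285, adjusted p = 0.826 by limma). Without control replicate 2 the log2 fold change was 0.04.

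The cysteine cathepsins B, C, H and Z stood at lower levels and varied by library more than by group. Ctsb (chromosome 14 from 63122462 to 63145923), an endopeptidase of lysosomes, had 33.3, 52.9 and 11.8 FPKM in AVP libraries, against 15.3, 46.0 and 30.3 FPKM in control libraries. Ctsh (chromosome 9 from 90054267 to 90076095), an aminopeptidase, had 38.1, 92.2 and 28.6 FPKM in AVP libraries, against 51.1, 66.4 and 79.9 FPKM in control libraries. Both were lowest in AVP 3 and highest in AVP 2, the pattern of Lyz2. Ctsz (chromosome 2 from 174427494 to 174439039), a carboxypeptidase, had 18.7, 79.8 and 63.2 FPKM in AVP libraries, against 67.1, 43.7 and 53.3 FPKM in control libraries. Ctsc (chromosome 7 from 88278024 to 88315861) encodes the dipeptidyl peptidase that activates the serine proteases of neutrophil granules. It had 4.12, 22.2 and 9.41 FPKM in AVP libraries, against 17.5, 5.79 and 11.8 FPKM in control libraries. Both Ctsz and Ctsc were lowest in AVP 1 and highest in AVP 2, so the cathepsins did not share a single order over the libraries. Within the AVP group the highest library exceeded the lowest 3.22-fold for Ctsh, 4.27-fold for Ctsz, 4.50-fold for Ctsb and 5.38-fold for Ctsc.

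For these 4 genes the fitted differences were small beside their errors. The log2 fold changes were 0.07 for Ctsb (95% interval -1.37 to 1.51), -0.06 for Ctsc (-1.59 to 1.47), -0.39 for Ctsh (-1.40 to 0.63) and -0.15 for Ctsz (-1.30 to 1.00), with unadjusted p from 0.408 to 0.931 by limma. The sign for Ctsb turned when libraries were not scaled (-0.0063) and without AVP replicate 1 (-0.12), AVP replicate 2 (-0.33) or control replicate 1 (-0.35). That for Ctsc turned without AVP replicate 1 (0.42) or control replicate 1 (0.26), and that for Ctsz without AVP replicate 1 (0.41). A 2-fold difference in either direction lies inside the intervals of Ctsb and Ctsc, and a 2-fold lower level inside those of Ctsh and Ctsz, so such differences are not excluded.

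Other cathepsins gave the same picture. Of 9 genes 5 were tested, 0 passed, 3 had a fitted fold change above 0 and 2 below, with a median of 0.07. Besides Ctss, the highest was Ctsa, a carboxypeptidase that protects other lysosomal enzymes, with 22.7, 50.1 and 14.0 FPKM in AVP libraries, against 28.2, 23.3 and 25.1 FPKM in control libraries. The list of 7 genes for primary granules held Epx, also an eosinophil marker, and the membrane protein gene Ms4a3, so not all 7 are neutrophil granule cargo. Of the 7, 6 were listed at 0 in all 6 libraries, among them Elane and Ctsg, which encode proteases that cathepsin C activates. Such a 0 can be a failed estimate, since Glb1 and Chpf, genes of broad use, were also listed at 0 in all 6 libraries. Prtn3, which encodes proteinase 3, was at 7.60 FPKM in AVP 2 and listed at 0 in the other 5 libraries.

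The stefins and cystatins, which block cysteine cathepsins, included genes more abundant than any cathepsin measured here. Of 10 such genes 8 were found and 6 tested, 0 passed an adjusted p of 0.05, 5 were above 0 and 1 below, with a median of 0.30. Cst3, which encodes cystatin C, had 1182, 1797 and 974 FPKM in AVP libraries, against 1037, 1307 and 1511 FPKM in control libraries. Stfa2l1, a stefin of mouse neutrophils whose level is uncertain because of near-identical relatives, had 1045, 895 and 1409 FPKM in AVP libraries, against 939, 1057 and 1055 FPKM in control libraries. The groups overlapped for both.

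The membrane proteins did not share a direction. Cd63 (gene identifier 12512, chromosome 10 from 128896231 to 128912822 in GRCm38) had 128, 81.1 and 68.1 FPKM in AVP libraries, against 99.4, 45.3 and 127 FPKM in control libraries. Its groups overlapped almost completely, with means of 92.3 ± 31.3 FPKM after AVP and 90.7 ± 41.7 FPKM in controls (SD, n = 3 each) and a log2 fold change of 0.18 (SE 0.45, 95% interval -0.86 to 1.21, unadjusted p = 0.701 by limma). Its sign turned without AVP replicate 1 (-0.14) or control replicate 2 (-0.24).

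Lamp1 was lower after AVP in every library. Lamp1 (gene identifier 16783, chromosome 8 from 13159161 to 13175338 in GRCm38) had 25.4, 31.8 and 16.7 FPKM in AVP libraries, against 43.5, 49.0 and 53.4 FPKM in control libraries. The AVP library nearest to the controls was AVP 2, and the lowest was AVP 3. The means were 24.6 ± 7.55 FPKM after AVP and 48.6 ± 4.97 FPKM in controls (SD, n = 3 each), a ratio of 0.507. The log2 fold change was -0.91 (SE 0.36, 95% interval -1.74 to -0.09), with an unadjusted p of 0.0339 and an adjusted p of 0.521 by limma, and the exact two-sided permutation p was 0.1. Without AVP replicate 3 it was -0.66, with an unadjusted p of 0.0906, and leaving out control replicate 1, 2 or 3 also took the unadjusted p above 0.05 (0.0529 to 0.0923 by limma), as did leaving out the moderation along the level of expression (0.0638). The monocyte marker sum was lowest in AVP 3, and the B cell marker sum was below all controls in AVP 1 and AVP 3. The part of either in the Lamp1 difference was not tested.

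Lamp2 stood higher than Lamp1 in all 6 libraries and leaned the other way. Lamp2 (gene identifier 16784, chromosome X from 38399647 to 38456460 in GRCm38) had 84.7, 118 and 99.9 FPKM in AVP libraries, against 74.9, 68.3 and 87.7 FPKM in control libraries. The groups touched in the deposited values, where AVP 1 lay below control 3, and did not overlap after scaling, which held for 13.9% of all genes tested. The means were 101 ± 16.6 FPKM after AVP and 77.0 ± 9.90 FPKM in controls (SD, n = 3 each), with a log2 fold change of 0.46 (SE 0.25, 95% interval -0.12 to 1.04, unadjusted p = 0.106, adjusted p = 0.707 by limma).

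The ratio of Lamp2 to Lamp1 needs no scaling between libraries. Lamp2 exceeded Lamp1 3.33-fold, 3.71-fold and 5.97-fold in AVP libraries, against 1.72-fold, 1.39-fold and 1.64-fold in control libraries. The lowest AVP ratio lay above the highest control ratio, and on the log2(FPKM + 1) scale the groups differed by 1.37, or by 1.13 without AVP replicate 3. This pair was singled out after the values were seen. Of the 45 ratios between 2 of the 10 genes, 5 did not overlap between groups, against 13.2% of all pairs of tested genes, and all 5 involved Lamp1 or Srgn.

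**Figure D4:**
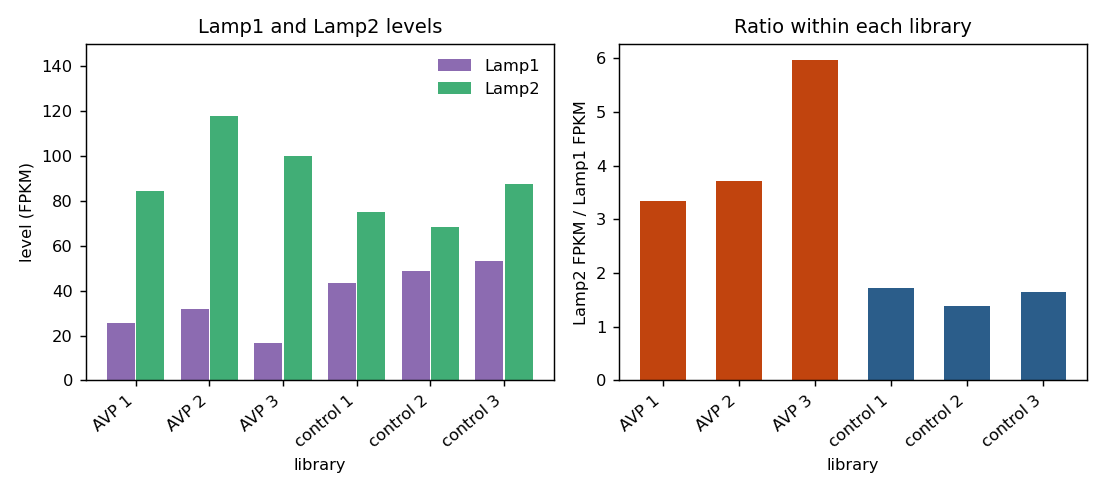
Left, FPKM of Lamp1 and Lamp2 in each library; right, the ratio of Lamp2 to Lamp1 in the same libraries, AVP in orange and control in blue. The ratio is 3.33 or more in the 3 AVP libraries and 1.72 or less in the 3 controls.

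The sequences upstream of these genes are shown as a description only, and those of Lamp1 and Lamp2 differ in the motif counted below. Many lysosomal genes carry the E-box CACGTG near their start, the core of an element that the transcription factor TFEB and its relatives bind. The 250 bases before each listed start were searched for CACGTG, a palindrome that reads alike on both strands, in RefSeq promoters on GRCm38.p6. The set held 9 promoters of 8 of the 10 genes (Srgn has starts at more than 1 place), the others being Ctsb and Ctsh. The Cd63 window (chr10:128909095-128909344, plus strand) lies inside the gene span given above, before an internal start. The Ctsc window (chr7:88277835-88278084, plus strand) runs past the gene start given above. What holds for these windows need not hold upstream of the whole gene. The windows are written 5′ to 3′ on the gene's strand, with each CACGTG in capitals: Lamp1 at chr8:13158911-13159160 (plus strand), Ctsd at chr7:142387828-142388077 (minus strand), Lamp2 at chrX:38456461-38456710 (minus strand) and the upstream start of Srgn at chr10:62527446-62527695 (minus strand).
Lamp1: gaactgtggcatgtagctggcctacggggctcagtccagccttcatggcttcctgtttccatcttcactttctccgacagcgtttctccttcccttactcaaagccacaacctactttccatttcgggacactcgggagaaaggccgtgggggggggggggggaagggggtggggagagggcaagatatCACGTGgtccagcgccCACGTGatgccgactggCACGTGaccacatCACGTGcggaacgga
Ctsd: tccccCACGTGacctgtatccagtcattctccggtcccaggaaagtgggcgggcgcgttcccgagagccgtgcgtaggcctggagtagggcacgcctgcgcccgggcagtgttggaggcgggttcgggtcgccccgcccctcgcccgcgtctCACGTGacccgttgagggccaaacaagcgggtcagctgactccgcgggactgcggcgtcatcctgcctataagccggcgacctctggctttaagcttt
Lamp2: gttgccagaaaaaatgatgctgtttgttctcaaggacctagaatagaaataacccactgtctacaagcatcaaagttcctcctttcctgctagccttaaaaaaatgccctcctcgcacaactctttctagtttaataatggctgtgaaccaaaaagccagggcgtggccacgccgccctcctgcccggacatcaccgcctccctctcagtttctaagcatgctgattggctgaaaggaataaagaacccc
Srgn: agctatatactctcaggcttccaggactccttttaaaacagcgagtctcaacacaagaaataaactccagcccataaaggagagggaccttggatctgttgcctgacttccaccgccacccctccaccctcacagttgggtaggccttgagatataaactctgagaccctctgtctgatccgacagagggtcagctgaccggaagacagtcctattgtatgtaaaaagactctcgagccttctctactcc
Lamp1 held 4 copies within 61 bases of its start, at 61 to 56, 45 to 40, 28 to 23 and 15 to 10 bases before it. At least that many stood in 7 of 32851 promoters of the same length (0.0213%). Ctsd held 2 copies, at 245 to 240 and 98 to 93 bases before its start, and the windows of the other 6 genes, Lamp2 and Srgn among them, held none. At least 1 copy stood in 6.02% of all promoters. The fitted log2 fold changes of the genes with these letters were 0.36 (SE 0.32) for Ctsd and -0.91 (SE 0.36) for Lamp1. That of Ctsd was 0.04 without control replicate 2, so its sign is not read as a direction. Whether the motif bears on the level of either gene was not tested. The AP-1 motif TGANTCA was in no member's window (6.75% of all promoters), and GAGGAAG, a form of the site of PU.1, a myeloid ETS factor, was in those of Ctsc and Cd63 (10.6% of all), both searched on both strands, with no overlap with CACGTG. A match describes letters only, and the motifs were chosen with results of these data known. Tfeb itself, named after its values were seen, had 6.15, 5.56 and 1.66 FPKM in AVP libraries, against 3.34, 5.70 and 5.18 FPKM in control libraries.

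Around the 10 members, 10 lists of 144 other genes of lysosomes, granules, proteoglycan synthesis and their partners were followed. Of these, 142 were found and 103 tested, and 0 had an adjusted p under 0.05. At an unadjusted p under 0.05, 8 were higher and 4 lower, 11.7% together against 8.47% of all genes tested. The groups did not overlap for 13.6%, against 14% of all genes.

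Subunits of the vacuolar ATPase, the proton pump that acidifies lysosomes, had fitted fold changes above 0 in all but 1 case, although 0 passed an adjusted p of 0.05. Of 16 tested, 15 (93.8%) lay above 0, against 47.7% of all genes tested, with a median of 0.34. At an unadjusted p under 0.05, 2 were higher, beside 4.69% of all genes tested. Without scaling, the sum over all 17 subunits was 2438 to 2538 FPKM in AVP libraries and 1918 to 2174 FPKM in control libraries. Atp6v1g1 alone added a mean of 625 FPKM in AVP libraries and 375 FPKM in control libraries to that sum. The deposited values did not overlap between groups for 3 of the 16 tested, against 14% of all genes tested. Atp6v1g1, below only Atp6v0e in mean FPKM over the libraries, had 642, 561 and 672 FPKM in AVP libraries, against 373, 330.1 and 423 FPKM in control libraries. The groups were well apart, with a log2 fold change of 0.82 (SE 0.21, unadjusted p = 0.00404, adjusted p = 0.291 by limma). Atp6v0e, a subunit of the membrane sector, had 484, 516 and 637 FPKM in AVP libraries, against 519, 497 and 462 FPKM in control libraries, with overlap.

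Other membrane proteins of the lysosome were split, as Lamp1 and Lamp2 were. Of 16 tested, 6 (37.5%) were above 0 and 10 below, against 47.7% above 0 among all genes tested, with a median of -0.14. At an unadjusted p under 0.05 the count was 2 each way, beside 4.69% of all genes tested higher and 3.78% lower. Laptm5, a lysosomal protein of blood cells, had 320, 242 and 265 FPKM in AVP libraries, against 183, 192 and 179 FPKM in control libraries, all AVP values being higher (log2 fold change 0.65, SE 0.24, unadjusted p = 0.0249, adjusted p = 0.473 by limma). Cd68, a relative of the LAMP proteins used as a macrophage marker, had 25.8, 89.1 and 15.1 FPKM in AVP libraries, against 37.8, 99.97 and 68.8 FPKM in control libraries, with its lowest value in AVP 3. Laptm4a, a further transmembrane protein of lysosomes named after its values were seen, had 6.57, 3.42 and 25.6 FPKM in AVP libraries, against 23.0, 39.4 and 51.6 FPKM in control libraries (log2 fold change -1.87, SE 0.70, unadjusted p = 0.0276, adjusted p = 0.492 by limma).

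The soluble hydrolases showed no common direction. Of 28 tested, 13 were above 0 and 15 below, with a median of -0.09. Gm2a, the activator protein for breakdown of the ganglioside GM2, had 142, 234 and 183 FPKM in AVP libraries, against 233, 197 and 266 FPKM in control libraries. Ppt1, a palmitoyl thioesterase, had 17.1, 64.6 and 54.0 FPKM in AVP libraries, against 64.0, 35.0 and 63.9 FPKM in control libraries. The groups overlapped for both. Acp5, the tartrate-resistant acid phosphatase, had the smallest p of all the lists and was named for that after its values were seen. It had 0.627, 0 and 3.69 FPKM in AVP libraries, against 23.1, 11.0 and 23.2 FPKM in control libraries, with a log2 fold change of -3.22 (SE 0.74, unadjusted p = 0.00245, adjusted p = 0.274 by limma).

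Of 11 tested genes of lysosomal gene control and sorting, 6 were above 0 and 5 below, with a median of 0.11. M6pr, the small mannose 6-phosphate receptor that carries enzymes to lysosomes, had 17.5, 27.1 and 22.8 FPKM in AVP libraries, against 4.50, 8.11 and 21.0 FPKM in control libraries. Ap3d1, a subunit of the adaptor that sends cargo to lysosomes and related granules, had 22.6, 16.9 and 16.03 FPKM in AVP libraries, against 5.79, 14.8 and 8.53 FPKM in control libraries. Its groups did not overlap (log2 fold change 1.01, SE 0.50, unadjusted p = 0.0774 by limma). The only gene of this list with an unadjusted p under 0.05 was Gga2, an adaptor that sorts mannose 6-phosphate receptors, named after its values were seen. It was at 0.566 FPKM in AVP 3 and listed at 0 in AVP 1 and AVP 2, against 1.78, 4.63 and 3.58 FPKM in control libraries (log2 fold change -1.81, SE 0.54, unadjusted p = 0.00986, adjusted p = 0.352 by limma).

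Among 9 other tetraspanins tested, 7 were above 0 and 2 below, with a median of 0.24. Cd9, a tetraspanin of the cell surface, had 284, 396 and 402 FPKM in AVP libraries, against 226, 186 and 275 FPKM in control libraries. Its groups did not overlap, the nearest values being AVP 1 and control 3, with a log2 fold change of 0.73 (SE 0.23, unadjusted p = 0.0126, adjusted p = 0.378 by limma). Cd53, a pan-leukocyte tetraspanin, had 385, 615 and 389 FPKM in AVP libraries, against 495, 419 and 493 FPKM in control libraries, and its groups overlapped as those of Cd63 did.

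**Figure D5:**
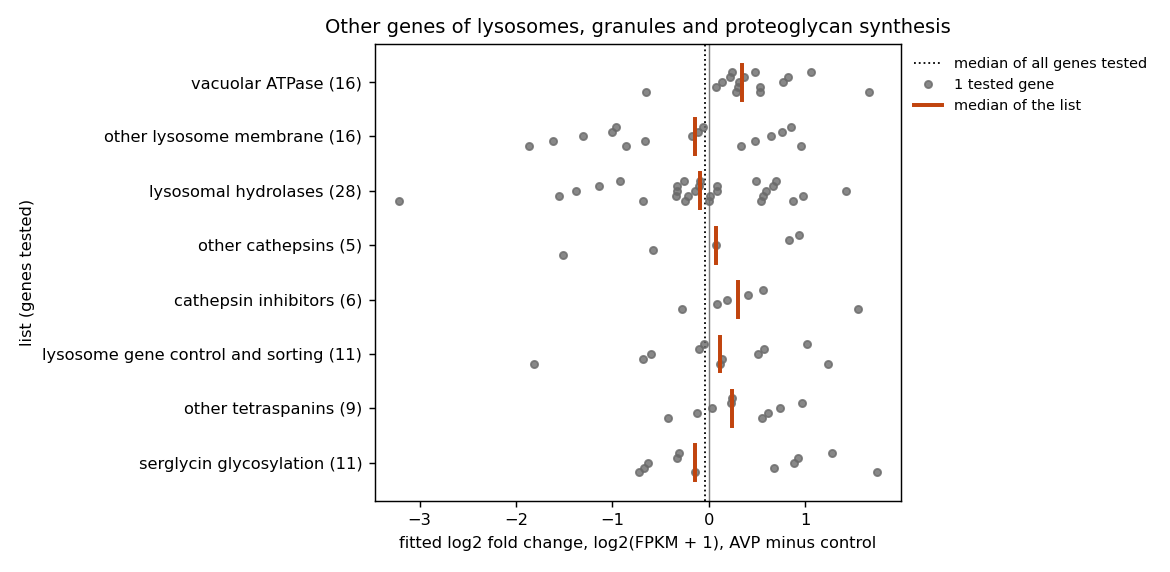
Fitted log2 fold changes (AVP minus control) of the tested genes of 8 lists, a grey point per gene, with the list's median as an orange bar and the median of all genes tested as a dotted line. The vacuolar ATPase has 15 of 16 points above 0, while lysosomal hydrolases and other lysosome membrane genes lie on both sides.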

How the data were processed

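Per the labels' protocols, TRIZOL-extracted RNA of sorted blood neutrophils went into TruSeq libraries, read as pairs of 151 bases on a NovaSeq. The submitters' processing notes name bcl2fastq 2.19, cutadapt 1.16.5, HISAT2 2.1, featureCounts 1.6.4, DESeq2 2.11.40.6 and mm10, without a role for each. The deposited values are taken to be FPKM: the file headers give only a library name, and values are not whole numbers, with totals that differ between libraries. FPKM is no count, so no count test was used, and depth is only an estimate (pseudogenes under 2000 bases). An exact 0 can be a failed estimate.

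Scaling used each library's trimmed mean log ratio against the geometric mean over libraries, trimming 30% of ratios and 5% of levels from either end. The filter asked for 1 FPKM or more in at least 3 libraries, and log2(FPKM + 1) was tested with limma 3.58.1 (R 4.3.3), with an intensity trend, two-sided, at a threshold of 0.05. Fold changes on this scale understate those of low genes. Printed FPKM are unscaled. The test was checked on simulated data.

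The members and gene lists were chosen with earlier results of these data known. Named are the 10 members, Lyz1, the 2 genes with the highest mean of each list of related genes, any with an adjusted p under 0.05 (there were 0), and the 3 profiles closest to Srgn and to Lyz2. Tfeb, Laptm4a, Acp5, Gga2, Ms4a4c, Elane, Ctsg, Glb1 and Chpf fall outside that rule and were named after their values were seen. The same holds for Ltf, Camp, Csf1r, Cd14, Ighd, Epx and Ms4a3. Of 47561 features, 44705 matched a RefSeq table of GRCm38 (mm10) by name, the source of identifiers, coordinates and promoters. Tables, alignments and plots used Python 3.11.15, pandas 2.3.3, scipy 1.17.1, Biopython 1.88 and matplotlib 3.10.9. There were 16 alternatives: other scalings, filters, pseudocounts and moderation, a replicate block, and each library left out.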

Additional observations from a re-analysis of the deposited data

How the results depend on the processing

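Srgn kept its direction under all 16 alternatives (log2 fold change 0.71 to 0.84) with an adjusted p of 0.125 to 0.733, and Lamp1 under all 16 (-1.06 to -0.66) with an adjusted p of 0.416 to 0.769. The unadjusted p of Srgn stayed under 0.05 in 15 and that of Lamp1 in 10. Without the intensity trend, 0 members were higher and 0 lower at that p. With no filter 2 were higher (Srgn and Lamp2), beside 437 of 18012 genes tested. With each replicate left out in turn, 0 to 1 members were lower at that p. Genes past an adjusted p of 0.05 numbered 11 with the 10 FPKM filter (where 230 higher and 150 lower genes had an unadjusted p under 0.05, among fewer genes tested), 3 with a pseudocount of 5, 1 without the trend and 0 to 4 with each replicate left out, and 0 members were among them. Signs turned for 5 members with each replicate left out in turn, over a range of -0.35 to 0.67 for Ctsb, -0.24 to 0.48 for Cd63, -0.57 to 0.42 for Ctsc, -0.50 to 0.41 for Ctsz and -0.80 to 0.52 for Lyz2. They were turned by leaving out AVP replicate 1 (Ctsb -0.12, Cd63 -0.14, Ctsc 0.42, Ctsz 0.41), AVP replicate 2 (Ctsb -0.33), AVP replicate 3 (Lyz2 0.52), control replicate 1 (Ctsb -0.35, Ctsc 0.26) or control replicate 2 (Cd63 -0.24), and that of Ctsb also without scaling (-0.0063). The cause was not tested. Replicate numbers are shared by the groups, and whether they stand for a pairing is not stated. Deviations of same-numbered libraries correlated at 0.02, -0.01 and -0.04, which with 3 libraries a group cannot exclude a pairing or a shared batch. With the replicate block, 0 members were lower at an unadjusted p under 0.05. Srgn then had an unadjusted p of 0.00840 and an adjusted p of 0.522, and Lamp1 an unadjusted p of 0.0634, by limma. Without scaling the median log2 fold change of all genes was -0.11, against -0.04. With 3 libraries a group, the intervals of Lyz2, Ctsb and Ctsc span 2-fold differences each way.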
